A study of Mus musculus with 6 samples.

Results

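The transcripts of 10 genes of natural killer (NK) cell recognition and killing were followed in splenic monocytes of vancomycin-gavaged and water-gavaged mice. The genes were chosen by name, and the 10 are taken from 46072 gene identifiers in the table, of which 24287 were above 0 in at least 1 library. They are the receptor genes Klrk1, Klrd1, Klrb1c and Ncr1, the cytokine receptor gene Il2rb, the chemokine gene Ccl5, the granule genes Nkg7, Gzma and Gzmb, and the transcription factor gene Eomes. All mice were C57BL/6 females, obtained at an age of 8 to 10 weeks. The Con group (n = 3 mice) received water by gavage for 6 days, and the Van group (n = 3 mice) received 2 mg of vancomycin per day, as gavages of 1 mg, over the same number of days. Both groups then rested without antibiotic before the monocytes were collected from the spleen, and the cells were not stimulated. The labels and the study's methods give this rest as 6 to 8 days, and the study's account of the RNA sequencing gives the upper end of that range. The monocytes were what remained after magnetic beads had removed other spleen cells, among them T cells, B cells and neutrophils by their surface markers and cells that carry NK1.1, the surface protein that Klrb1c encodes. A library can thus hold cells that the beads missed. The question was which of these genes were present in the libraries, how each stood in each mouse, and whether they moved together over the mice.

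NK cells are innate lymphocytes that kill infected, stressed or transformed cells by releasing granules that hold perforin and granzymes. A target is chosen by balance between activating receptors, such as NKG2D (Klrk1) and NKp46 (Ncr1), and inhibitory receptors, such as the heterodimers of CD94 (Klrd1) with an NKG2 chain. NK cells depend on interleukin-15, which signals through the chain encoded by Il2rb, and on the T-box factors EOMES and T-bet. Several of these genes are also used by CD8 T cells, and Ccl5 is also expressed by other leukocytes.

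The depth was 43.4M to 61.8M deposited counts per library, an estimated 16.3M to 23.2M fragments. The estimate takes counts as bases divided by 75, a form that most counts have. It takes a fragment as 200 bases, from the read length that the study's methods state. Both were assumed here, so that fragment depths and all limits set from them are uncertain. Levels are given as CPM, counts per library scaled to a common size with TMM factors, and levels of different genes are compared as FPKM, which also divides by transcript length. Sums over marker lists and the choice of genes by mean CPM are not per length. A gene at 0 in a library could be present at up to 0.131 to 0.185 CPM, the level of 3 fragments, and this limit covers counting error only. The libraries carried the markers of monocytes at high levels in both groups, with Csf1r between 2990 and 3620 CPM, Itgam between 952 and 1140 CPM, Ly6c2 between 262 and 404 CPM and Ccr2 between 316 and 757 CPM. Markers of other cells were uneven. Of the neutrophil list, Ly6g and Stfa2l1 were at 0 in every library, while Mmp8 lay between 30.4 and 89.5 CPM. Of the T cell list, Cd3e was at most 0.993 CPM, while Cd8a lay between 4.65 and 10.3 CPM and Cd4 between 23.2 and 39.7 CPM. Of the B cell list, Ms4a1 was at most 1.47 CPM, while Cd79b lay between 11.8 and 15.7 CPM and Cd22 between 18.2 and 28.2 CPM.

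Klrk1 and Klrb1c are receptor genes of the NK gene complex on the same strand, and their promoters are shown because Klrk1 was lower in Van and Klrb1c, the gene of the antigen that the beads removed, was not called. The promoter windows run from 250 bases before to 50 bases after the gene start in RefSeq (GRCm38.p6, minus strand, chr6:129623815-129624114 for Klrk1 and chr6:128788592-128788891 for Klrb1c), and capitals mark matches to TGTGGT, the core bound by RUNX factors, and to GGAAGT, an ETS core.
Klrk1: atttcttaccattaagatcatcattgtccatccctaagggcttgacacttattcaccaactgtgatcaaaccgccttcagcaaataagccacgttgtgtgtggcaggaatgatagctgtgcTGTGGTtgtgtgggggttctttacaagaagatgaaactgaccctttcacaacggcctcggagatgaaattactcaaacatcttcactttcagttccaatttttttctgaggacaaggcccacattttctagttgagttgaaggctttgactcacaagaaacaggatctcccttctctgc
Klrb1c: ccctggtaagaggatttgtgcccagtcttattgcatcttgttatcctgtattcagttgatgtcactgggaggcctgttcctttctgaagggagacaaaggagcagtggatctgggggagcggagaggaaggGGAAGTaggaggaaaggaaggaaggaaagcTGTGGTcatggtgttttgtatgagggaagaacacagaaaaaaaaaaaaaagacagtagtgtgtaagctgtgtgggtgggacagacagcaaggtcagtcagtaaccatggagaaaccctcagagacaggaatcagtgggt

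The promoter table held 7 of the 10 genes, all but Klrd1, Ccl5 and Il2rb. The RUNX core TGTGGT was found on either strand in 6 of the 7 windows (Gzma, Gzmb, Klrb1c, Klrk1, Ncr1 and Nkg7, not Eomes), whereas 16.8% of all 32851 windows held it. The T-box core GGTGTG, the kind of site EOMES binds, was in 1 of the 7 windows (Nkg7) and in 19.0% of all windows. The ETS core was in 1 (Klrb1c) and in 23.8% of all windows. A RUNX and a T-box match can share the letters GGT. These matches are letters in a window and not measured binding.

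The 10 genes spanned a wide range of levels in these libraries (FPKM, mean of 6 libraries). Ccl5, a chemokine that draws T cells, NK cells and monocytes, stood at 96.1 FPKM (range 65.1 to 122) and above 97.3% of expressed genes. Klrk1 followed with 8.31 FPKM (4.16 to 13.7) and Klrd1 with 4.22 FPKM (3.10 to 5.97), and the ranges of these genes overlapped, although Klrk1 was above Klrd1 within every mouse. Il2rb was at 0.493 FPKM (0.319 to 0.647). The other 6 genes were all below 0.2 FPKM on average, with Klrb1c at 0.179, Gzma at 0.178, Nkg7 at 0.135, Eomes at 0.118, Gzmb at 0.104 and Ncr1 at 0.0308 FPKM, and their ranges overlapped. The libraries thus held Ccl5, Klrk1 and Klrd1 at clear levels in every mouse beside Ncr1, Nkg7, Gzma and Gzmb, which define NK cells and their granules, at or near 0.

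**Figure D1:**
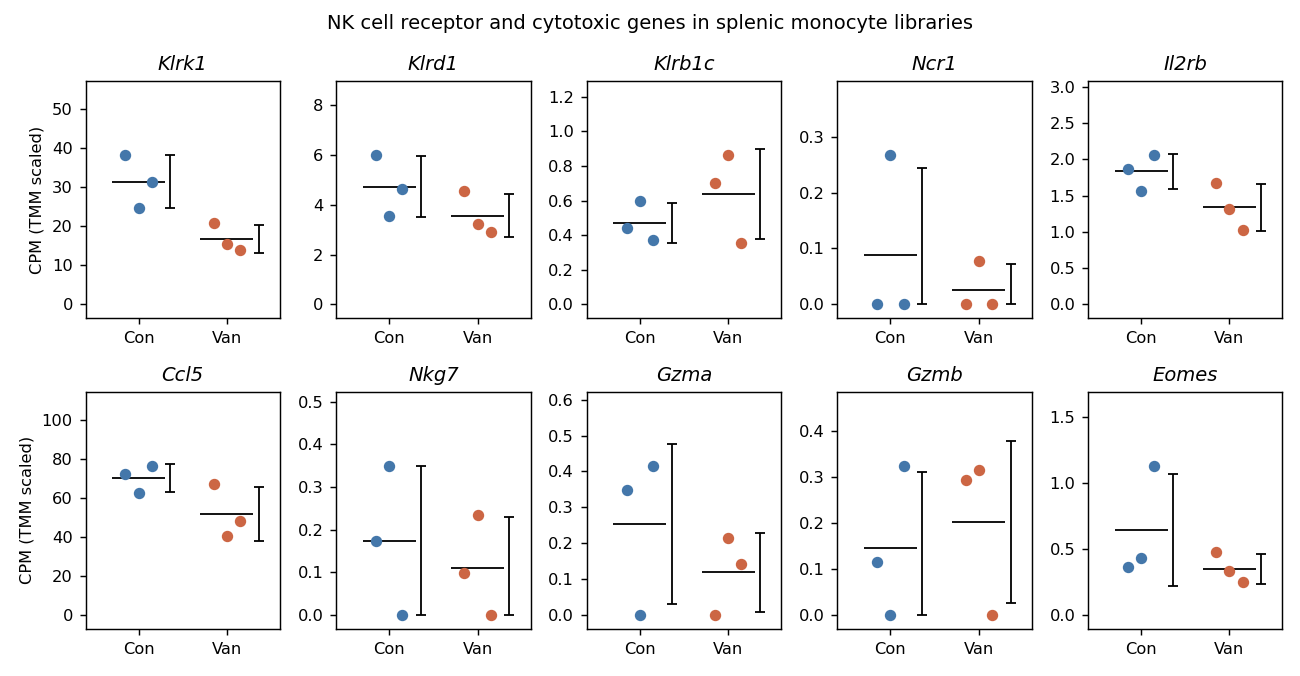
CPM of each of the 10 genes in the 3 Con mice (blue) and the 3 Van mice (orange), 1 point per mouse in the order of replicates 1 to 3, with the group mean (line) and SD (bar, cut at 0); each panel has its own scale. The groups separate for Klrk1, from 24.7 to 38.2 CPM in Con and from 14.0 to 20.8 CPM in Van, and overlap in the other panels.

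Of the 10 genes, 8 had enough counts to be tested, and 1 of them, Klrk1, was called between Van and Con, that is, had an adjusted p no higher than 0.05 in edgeR. The background was 2.00% of the 16138 genes tested, with 0.917% called lower and 1.08% called higher in Van. DESeq2 also called Klrk1 and no other member, beside 7.36% of the genes it tested. An unadjusted p under 0.05 was found for 2 of the 8 (Klrk1 and Ccl5), against 16.5% of all genes tested. The median log2 fold change of the 8 was -0.44, and 6 had a fold change below 0, as did 50.4% of all genes tested. In bulk RNA, fewer cells of a type and less RNA per cell cannot be told apart.

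Klrk1 encodes NKG2D, an activating receptor for ligands that stressed cells display. In Con, replicates 1, 2 and 3 held 38.2, 24.7 and 31.2 CPM, and in Van they held 20.8, 15.5 and 14.0 CPM. Every Van mouse was below every Con mouse, which held for 22.5% of all genes tested in either direction and for 11.0% with Van lower. The mean of Klrk1 was 31.4 ± 6.75 CPM in Con and fell to 16.8 ± 3.55 CPM in Van (SD, n = 3 mice in either group). Its log2 fold change in Van against Con was -0.90 with an SE of 0.18 and a 95% interval from -1.32 to -0.48 (edgeR quasi-likelihood, Benjamini-Hochberg adjusted p = 0.0495). The two-sided exact permutation p was 0.1, the smallest that 3 mice against 3 allow. The call stood at the threshold. With 1 mouse left out, the fold change stayed between -1.09 and -0.74, while the adjusted p from edgeR was 0.115, 0.0586 and 0.161 when Con replicate 1, 2 or 3 was left out. It was 0.0477, 0.179 and 0.148 when Van replicate 1, 2 or 3 was left out. DESeq2 gave an adjusted p of 6.6e-05, and limma on log2(FPKM + 1) values gave 0.127.

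Klrd1 encodes CD94, which pairs with NKG2 chains to form inhibitory and activating receptors, and its gene ends 11.5 kb from the end of Klrk1. It was at 6.00, 3.55 and 4.62 CPM in Con and at 4.54, 3.22 and 2.91 CPM in Van. The groups overlapped, since Van replicate 1 was above Con replicate 2. The log2 fold change was -0.41 (SE 0.24, 95% interval -0.96 to 0.15, edgeR adjusted p = 0.459), so that neither no difference nor a fall like that of Klrk1 lies outside the interval.

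Klrb1c encodes NK1.1, the protein that the beads were directed against. It was at 0.444, 0.600 and 0.370 CPM in Con and at 0.703, 0.863 and 0.355 CPM in Van, from 15.6 to 44.2 deposited counts per library. The mouse with the lowest and the mouse with the highest level were both in the Van group, and the log2 fold change was 0.43 (SE 0.44, edgeR adjusted p = 0.706). The exons of Klrb1c share 413 bases with those of Gm44511 on the same strand, so that reads could be mixed between them. Ncr1 encodes NKp46, a receptor found on NK cells and some other innate lymphocytes. It had counts in Con replicate 2 (0.267 CPM) and in Van replicate 2 (0.0784 CPM) and was at 0 in the other 4 libraries, too few for a test.

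Il2rb encodes the chain shared by the receptors for interleukin-2 and interleukin-15. It was at 1.87, 1.57 and 2.06 CPM in Con and at 1.67, 1.31 and 1.03 CPM in Van. Van replicate 1 was above Con replicate 2, and the log2 fold change of -0.45 (SE 0.26, edgeR adjusted p = 0.442) did not pass the test. Ccl5 was at 72.0, 62.5 and 76.4 CPM in Con and at 67.0, 40.4 and 48.0 CPM in Van. As for Klrd1 and Il2rb, Van replicate 1 lay above Con replicate 2, while Van replicates 2 and 3 were below every Con mouse. The log2 fold change of Ccl5 was -0.44 (SE 0.17, 95% interval -0.82 to -0.05, edgeR adjusted p = 0.242). Without Van replicate 1 it was -0.67, with an adjusted p of 0.054 from edgeR, and without Van replicate 2 it was -0.29.

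The granule genes were barely present. Gzma, a granzyme with trypsin-like activity, was at 0.347, 0 and 0.416 CPM in Con and at 0, 0.216 and 0.142 CPM in Van. Gzmb, the granzyme that cleaves caspases, was at 0.116, 0 and 0.324 CPM in Con and at 0.294, 0.314 and 0 CPM in Van. Each was at 0 in a mouse of either group, and the 95% intervals of their log2 fold changes ran from -3.96 to 1.81 for Gzma and from -2.37 to 3.42 for Gzmb. Nkg7, a granule membrane protein, was at 0.174, 0.350 and 0 CPM in Con and at 0.098, 0.235 and 0 CPM in Van and was not tested. Eomes was at 0.366, 0.434 and 1.13 CPM in Con and at 0.474, 0.333 and 0.248 CPM in Van. The log2 fold change of Eomes, -0.85 (SE 0.54, edgeR adjusted p = 0.496), leaned on Con replicate 3, without which it was -0.18, and its exons share 118 bases with Gm33460 on the opposite strand. At these counts, a difference in the granule genes or Eomes was not detectable unless it was large.

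The 4 genes with at least 1 CPM in every library, Klrk1, Klrd1, Il2rb and Ccl5, were high and low in the same mice, a cutoff that was chosen after the values were seen. In each of them Con replicate 2 was the lowest Con mouse and Van replicate 1 the highest Van mouse. Over the 6 mice, Pearson's r of log2(CPM + 1) was between 0.81 and 0.90 for the 6 pairs of these genes. Since Klrk1 separated the groups, r was also taken after subtracting each group's mean, and it was then between 0.71 and 1.00. Klrk1 and Klrd1 had r = 0.89 (exact permutation p = 0.0194) and Spearman's rho = 0.94 (exact permutation p = 0.0167) over the 6 mice. Their r was 0.66 without Con replicate 1 and Van replicate 3, the mice farthest from the median of Klrk1, and 1.00 for the deviations from the group means. Klrk1 and Ccl5 had r = 0.87 (exact permutation p = 0.0306) and rho = 0.83 (exact permutation p = 0.0583), with r = 0.90 without the same mice.

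The other members differed in their relation to these 4. Eomes had r between 0.38 and 0.75 with them, Gzma between 0.21 and 0.46 and Gzmb between 0.09 and 0.45, all above 0. Klrb1c had r between -0.46 and -0.14 and Ncr1 between -0.36 and -0.04, all below 0, and Nkg7 between -0.18 and 0.10. None of these pairs had an exact permutation p under 0.05. After each group's mean was subtracted, Eomes, Gzmb and Ncr1 kept their signs. Klrb1c then had r of 0.07 with Klrk1, 0.04 with Klrd1, 0.28 with Il2rb and -0.24 with Ccl5. Gzma had -0.11 with Ccl5, and Nkg7 was below 0 with all 4. Over all 6 less abundant genes, the 24 pairs of one of the 4 with one of the 6 less abundant genes had a median r of 0.09, from -0.46 to 0.75, and the 15 pairs among the 6 less abundant genes had a median of -0.16. Nkg7, Ncr1 and Klrb1c were each highest in replicate 2 within Con and within Van, the same Con mouse that was lowest for Klrk1, Klrd1, Il2rb and Ccl5. Ncr1 and Nkg7 had r = 0.83 (exact permutation p = 0.0333) and rho = 0.86 (exact permutation p = 0.0333), which rests on the 2 libraries with Ncr1 counts, since without them Ncr1 was at 0 throughout. Over all 45 pairs the median r was 0.21 and 27 were above 0. An exact permutation p of r under 0.05 was found for 7 pairs, and after Benjamini-Hochberg adjustment over the 45 pairs the smallest adjusted permutation p was 0.26 for r and 0.25 for rho.

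**Figure D2:**
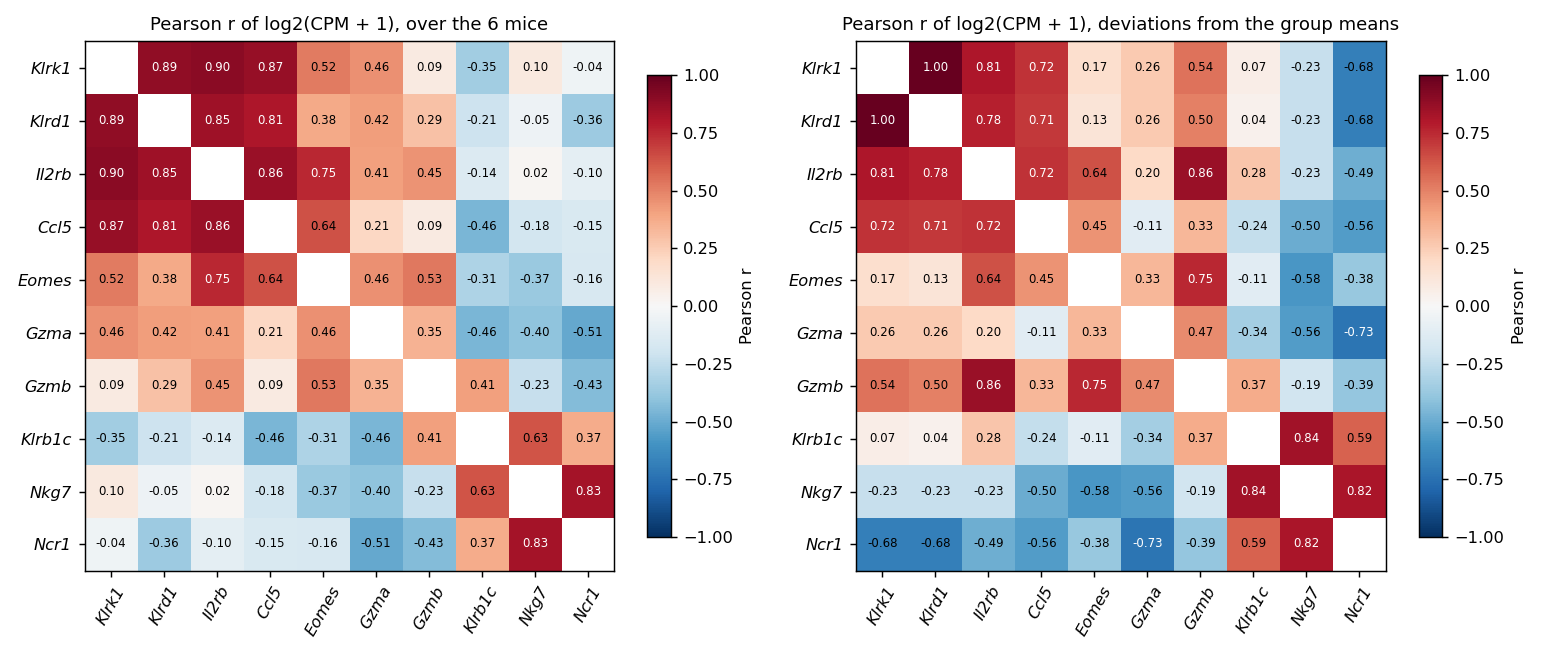
Pearson's r of log2(CPM + 1) for each pair of the 10 genes, over the 6 mice (left) and for deviations from the group means (right), on a colour scale from -1 (blue) to 1 (red). The block of Klrk1, Klrd1, Il2rb and Ccl5 lies between 0.81 and 0.90 on the left and between 0.71 and 1.00 on the right. Klrb1c, Nkg7 and Ncr1 have r between 0.37 and 0.83 with each other on the left. These 3 genes were below 1 CPM in every library, and Ncr1 was at 0 in 4 of them.

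The genes that moved over the same mice did not move by the same amount, as FPKM ratios within each mouse showed. The ratio of Klrk1 to Klrd1 was 2.30, 2.61 and 2.13 in Con and 1.64, 1.47 and 1.34 in Van, without overlap. That of Ccl5 to Klrk1 lay between 8.15 and 11.9 in Con and between 13.5 and 18.1 in Van. By contrast, Ccl5 to Klrd1 lay between 18.7 and 26.8 in Con and between 19.9 and 24.3 in Van, within the spread of the Con mice. Klrk1 to Klrb1c lay between 50.1 and 96.2 in Con and between 16.4 and 37.1 in Van. Klrk1 was thus lower in Van also relative to each of these members, and the ratios are a description with no test.

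**Figure D3:**
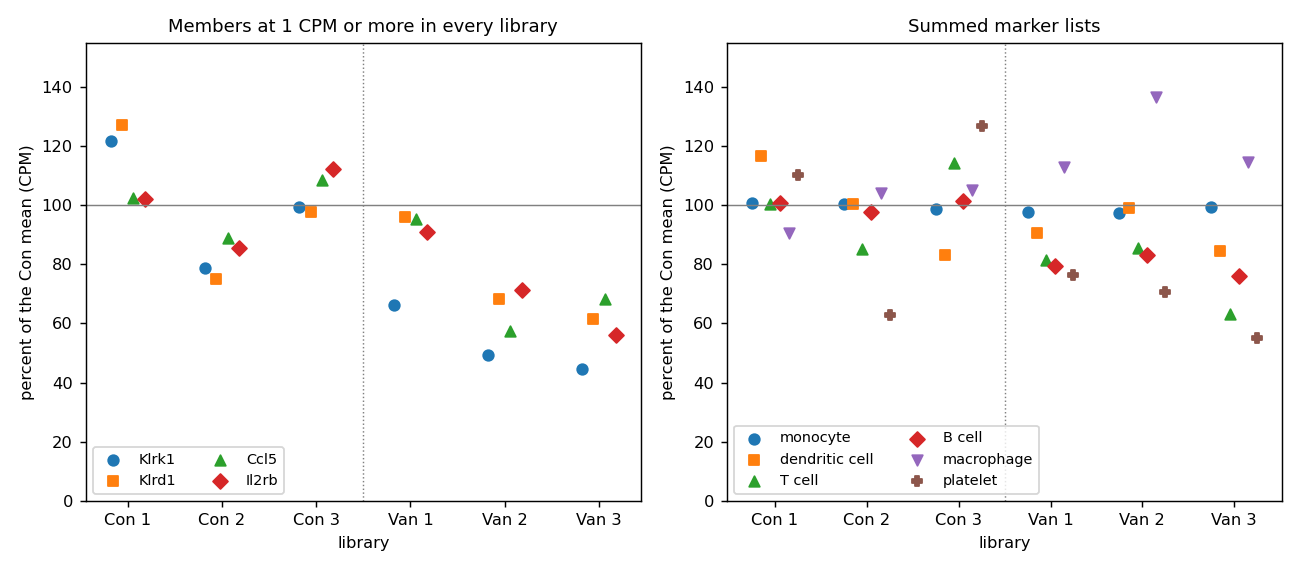
CPM of the 4 members with at least 1 CPM in every library (left) and summed CPM of 6 marker lists (right), each as percent of its mean over the 3 Con mice (grey line), by library. Klrk1 is the lowest of the 4 in each Van mouse. On the right the B cell, T cell, platelet and dendritic cell sums lie below the Con mean in every Van mouse, the dendritic cell sum close to it in Van replicate 2. The monocyte sum lies near the Con mean throughout and the macrophage sum lies above it in every Van mouse.

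A wider list of 66 genes of NK cells and cytotoxic lymphocytes held 46 that could be tested. Of these, 2 were called, both lower in Van, beside the 2.00% background. They are Il18r1 and Itga2, and Itga2 passed the filter on low counts through the Con mice alone, so that its call supports nothing. With at least 10 counts required in every library, or on the fragment scale, 1 was called, Il18r1. An unadjusted p under 0.05 was found for 14 (12 lower), against 16.5% (8.14% lower) of all genes tested, and the groups did not overlap for 13 (11 lower), against 22.5% (11.0% lower). Itga2 is among the lower genes of both counts. The median log2 fold change was -0.16, and 30 genes had one below 0. For 7 genes every library was at 0, among them Ifng, the gene of interferon gamma, and Gzmk. Prf1, the gene of perforin, was at most 0.275 CPM and was not tested.

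Il18r1, a receptor chain for interleukin-18, which makes NK cells and T cells produce interferon gamma, was at 3.59, 5.19 and 5.16 CPM in Con and at 2.22, 1.39 and 1.95 CPM in Van. The groups did not overlap, and Il18r1 fell in Van by a log2 value of -1.32 (SE 0.24, edgeR adjusted p = 0.0336). The adjusted p from edgeR was 0.0447 without Con replicate 1 and exceeded 0.05 without Con replicate 2 (0.109), Con replicate 3 (0.143) or Van replicate 1, 2 or 3 (0.0593, 0.125 and 0.0967). Its partner chain Il18rap was not called. Itga2, the integrin that the DX5 antibody recognises on NK cells, was at 0.289, 0.384 and 0.601 CPM in Con and at 0 in the 3 Van mice. Since the Con mice alone carried Itga2 past the filter on low counts, no size of difference is drawn from these values.

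Among receptors, 8 of the 10 tested had a fold change below 0 and none was called by edgeR or DESeq2, although 4 had an unadjusted p under 0.05. Those with the highest levels per length were Cd244 (mean 68.2 FPKM, log2 fold change 0.19), a receptor of the SLAM family, and Slamf7 (11.8 FPKM, -0.40). Klrc1, which encodes the NKG2A chain that pairs with CD94, was between 1.06 and 1.66 CPM in Con and between 0.514 and 1.06 CPM in Van (log2 fold change -0.85, edgeR adjusted p = 0.287). Of the 9 adaptor genes, all tested, none was called by edgeR or DESeq2 and 1, Cd247, had an unadjusted p under 0.05. NKG2D has no signalling motif of its own and relies on DAP10 (Hcst) and DAP12 (Tyrobp). Hcst was between 7.05 and 7.85 CPM in Con and between 6.75 and 7.96 CPM in Van, with a log2 fold change of 0.00 (SE 0.12), and Tyrobp was between 782 and 882 CPM in Con and between 782 and 834 CPM in Van, with a log2 fold change of -0.04 (SE 0.06). Fcer1g, another adaptor with high levels in myeloid cells, had a log2 fold change of 0.07 (SE 0.07).

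In the remaining roles, the genes with the smallest p-values after Il18r1 and Itga2 missed the adjusted threshold in edgeR. Id2, a regulator of innate lymphocyte development, had a log2 fold change of 0.35 (SE 0.09, edgeR adjusted p = 0.105), and Ikzf3, the gene of Aiolos, had -0.66 (SE 0.18, edgeR adjusted p = 0.113). Both were called by DESeq2. Tnfsf10, the death ligand TRAIL, had -0.55 (SE 0.16, edgeR adjusted p = 0.127), and Cd96, an adhesion receptor of NK and T cells, had -1.53 (SE 0.47, edgeR adjusted p = 0.151). The pair of genes named by the rule (highest mean CPM in the role) had, in each of these 5 roles, log2 fold changes between -0.16 and 0.32. Of the granule genes, Srgn, the granule proteoglycan, had a log2 fold change of 0.09 (SE 0.11), and Unc13d, which primes granules for release, -0.16 (SE 0.08). Of the secreted factors, Ccl3 and Ccl4, chemokines that attract leukocytes, had 0.16 (SE 0.13) and 0.19 (SE 0.21), where Ccl5 had -0.44. Il2rg, the common chain that works beside the product of Il2rb, had 0.04 (SE 0.11), and S1pr5, which guides NK cells and monocytes out of tissue, 0.19 (SE 0.14). Of the transcription factors, Zeb2 had -0.07 (SE 0.06) and Nfil3 0.15 (SE 0.09). Of the adhesion genes, Itgal had 0.25 (SE 0.10) and Cd2 0.32 (SE 0.39). None of these last 10 genes was called by edgeR or DESeq2, and Itgal alone of them had an unadjusted p under 0.05 in edgeR.

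**Figure D4:**
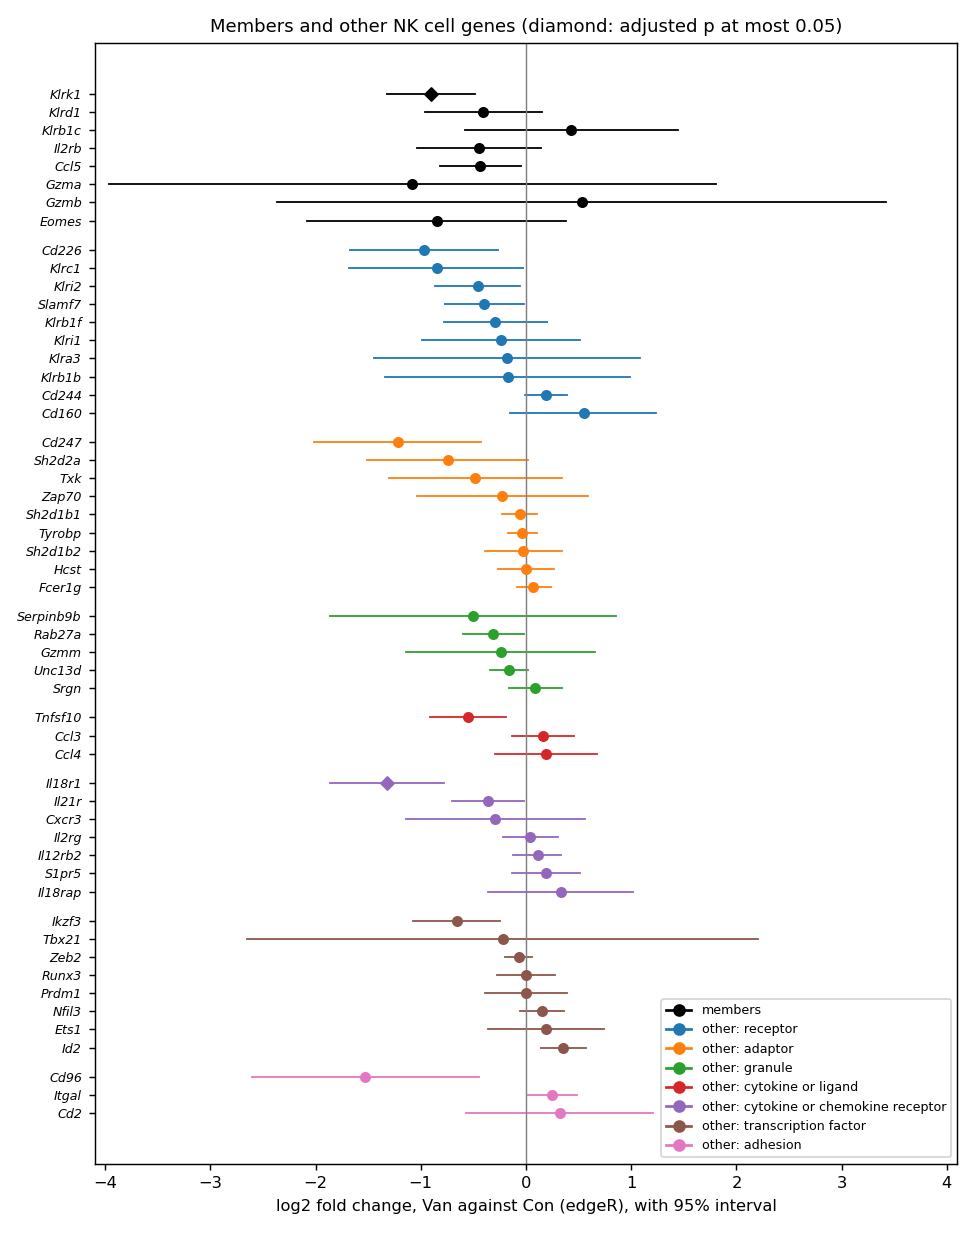
Log2 fold change (Van against Con, edgeR) with its 95% interval for the 8 members tested (black) and for 45 other NK cell genes coloured by role; Itga2, at 0 in all Van mice, is not drawn. Diamonds mark Klrk1 and Il18r1, the 2 drawn genes with an adjusted p under 0.05; the intervals of Gzma and Gzmb reach across 0 in both directions.

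Klrk1, Klrd1 and Klrb1c lie in the NK gene complex on chromosome 6 of GRCm38, where 24 Klr genes stretch from 128609227 to 131247362. Klrk1 runs from 129610323 to 129623864 on the minus strand, Klrd1 from 129591782 to 129598775 on the plus strand and Klrb1c from 128778485 to 128789215 on the minus strand. Of the 24 Klr genes, 11 were tested and 7 were at 0 in every library. Among the 11, Klrk1 was called, 9 had a fold change below 0, and the median was -0.24. Klra2, at the far end of the complex, was the most abundant Klr gene with a mean of 130 FPKM and a log2 fold change of -0.12 (SE 0.084, edgeR adjusted p = 0.527). The same stretch holds 18 other genes, many of them C-type lectin genes, of which 11 were tested, 4 were at 0 in every library and 3 were called, Clec2i (log2 fold change -0.36), Clec12a (-0.29) and Clec9a (-1.12), all lower in Van, beside 0.917% of all genes tested that were called lower.

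**Figure D5:**
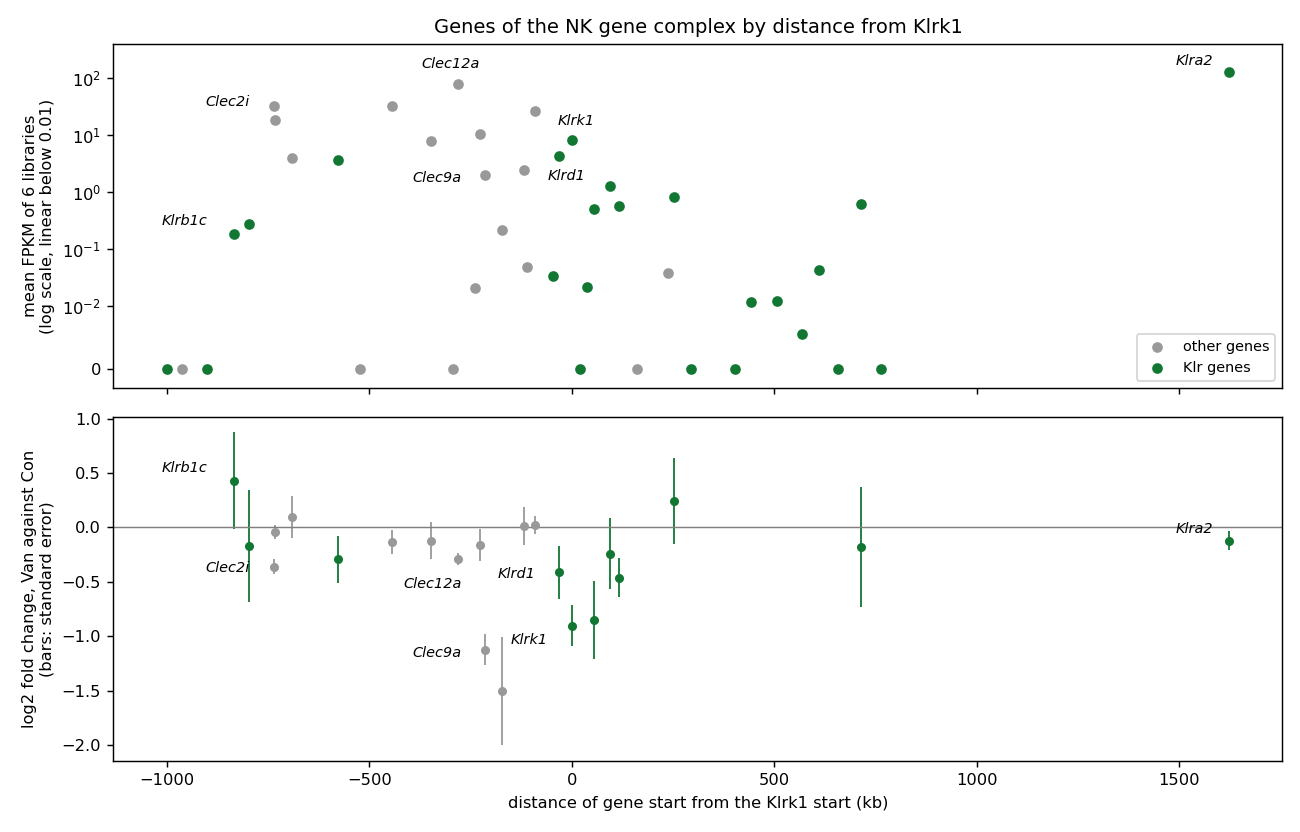
Genes of the NK gene complex by the distance of their start from that of Klrk1 (kb), with the mean FPKM of the 6 libraries on a log scale (top) and the log2 fold change of tested genes with its standard error (bottom); Klr genes are green. Klrk1 and Klrd1 lie side by side at 8.31 and 4.22 FPKM, and Klra2 at 130 FPKM stands far above the other Klra genes.

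Other cell types that the sorted cells could hold were followed with marker lists. Over all genes tested, 2.00% were called by edgeR, 16.5% had an unadjusted p under 0.05 in edgeR and 22.5% had no overlap. DESeq2 called 7.36% of the genes it tested. The T cell list, which bears on Klrk1, Klrd1 and Ccl5 since CD8 T cells, which the beads were also meant to remove, use them, had 0 of 14 genes called by edgeR, 0 by DESeq2, 4 with an unadjusted p under 0.05 and 12 with a fold change below 0. The 4 were Cd3d (log2 fold change -1.14), Trbc1 (-1.08) and Trbc2 (-1.0), each at most 1.85 CPM, and Tcf7 (-0.57). Above 0 were Cd3e (0.12) and Cd8b1 (0.37). The sum of the T cell list, to which Cd4 gave most, was between 53.2 and 71.5 CPM in Con and between 39.6 and 53.4 CPM in Van. The B cell list had 0 of 10 called by edgeR and 1 by DESeq2, Blk (log2 fold change -1.35). In it 2 had an unadjusted p under 0.05 and all 10 had a fold change below 0. The B cell list summed to between 48.3 and 50.1 CPM in Con and between 37.6 and 41.1 CPM in Van, without overlap. The dendritic cell list had 1 of 8 called by edgeR, Clec9a, which fell from 10.1 to 4.66 CPM, and 3 by DESeq2, Clec9a, Siglech and Xcr1. In this list 7 of 8 had a fold change below 0, and 5 had an unadjusted p under 0.05 in edgeR and no overlap, of which Flt3 was higher in Van. Its sums, to which Cd209a, Flt3 and Clec10a gave most, were 109 to 153 CPM in Con and 111 to 130 CPM in Van. The list of other innate lymphocytes and NKT cells, with 0 of 5 called by edgeR, 2 by DESeq2 and 3 with an unadjusted p under 0.05, summed to between 82 and 85.2 CPM in Con and between 98.4 and 116 CPM in Van. Its largest part was Zbtb16, with means of 41.6 and 64.1 CPM, whereas the log2 fold changes of Cxcr6 and Il7r were -0.67 and -0.53 and the median of the list was 0.05. The median log2 fold change was -0.42 for the T cell list and -0.50 for the B cell list, beside -0.44 for the members. The monocyte list summed to between 26000 and 26500 CPM in Con and between 25600 and 26100 CPM in Van, and 1 of 12, Ccr2, was called by edgeR, lower in Van (log2 fold change -0.83). DESeq2 called 3 of its genes, Ccr2 and Itgam lower and Cd14 higher in Van, and 5 had an unadjusted p under 0.05 in edgeR. The part of these shifts in the fall of Klrk1 was not tested. Per length, the highest level of Ncr1, Nkg7 and Prf1 in any library was 0.145, 0.335 and 0.115 FPKM.

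The genes most like the members over the mice were taken as those with the highest Pearson's r to the mean z-score of the 8 members tested, among 12680 genes with a mean of at least 1 CPM. They were Cfb, Scd2 (r = 0.995 each), Rap1a (0.989), the intronic RNA gene ENSMUSG00000106099 (0.986), Cic, Xirp1 (0.984 each), Plekho2 (0.982), Egr3 (0.980), Stard4 (0.979) and Srcap (0.978). As the best of 12680 genes over 6 mice these values are a description, and 171 genes had an r above 0.9. Their fold changes ran from -0.68 for Xirp1 to -0.07 for Cic on the log2 scale, and none was called. The score itself was highest in Con replicate 3 (0.84) and lowest in Van replicate 3 (-1.01), with Van replicate 1 (0.17) above Con replicate 2 (-0.27). In the score the less abundant Klrb1c, Gzma, Gzmb and Eomes weigh as much as Klrk1, Klrd1, Il2rb and Ccl5. The members did not all move together, so that the score is not a profile they shared.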

How the data were processed

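Stranded paired-end mRNA libraries, 1 per mouse, came from the monocytes of 3 Con mice and 3 Van mice. The authors aligned reads to GRCm38 with HISAT2 2.2.1, used SAMtools 1.9, and made the deposited FPKM with StringTie 2.1.3 and Ballgown. The deposited expected counts were made from these by tximport and carry no library-size scaling. After multiplication by 75, whole numbers (within 0.05) made up 52.3% to 55% of each library's counts above 0. Counts were therefore taken as bases divided by 75. With 200 bases per fragment, from the read length that the study's methods state, 1 fragment was taken as 2.67 counts. Strand use and the annotation release were not given in the sources used here. The VanLip group was not analysed here.

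Counts were rounded and tested with edgeR 4.0.16 in R 4.3.3 (TMM, expression filter at a minimum count of 10, quasi-likelihood test, group as the only term, Benjamini-Hochberg adjustment over all genes tested, called at 0.05). Pair correlations used log2(CPM + 1) and all 720 orders of 6 mice. P-values measure the spread between these mice. The genes named are the 10 members, every called gene of the wider list and the pair with the highest mean CPM in each role, marker genes and the 10 most like genes. Klrc1, Hcst, Prf1, Id2, Ikzf3, Tnfsf10, Cd96, further list markers, Ifng, Gzmk, Cd247, Il18rap, Klra2, Clec2i, Clec12a and the ratios were added after values were seen. The members and lists were chosen with earlier results of these data known. Coordinates are those of GENCODE M21 (98.0% of identifiers matched). No stretch of 200 bases at 95% identity to another gene was found for the members. The alternatives were DESeq2 1.42.0, other scalings and filters, the replicate number as a block, limma 3.58.1 on FPKM and each mouse left out. The tests were also run on simulated counts, with changes placed only in genes above 200 counts on average. Il2rb and the 6 members below 1 CPM in at least 1 library did not reach that level.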

Additional observations from a re-analysis of the deposited data

How the results depend on the processing

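Klrk1, Klrd1, Il2rb and Ccl5 had a fold change below 0 under each of 17 alternatives, of which DESeq2 with its filter set for 0.05 was chosen after seeing the data. Klrk1 was called in 9 of the 17 (adjusted p from 5.91e-05 to 0.199), and Klrd1, Il2rb and Ccl5 in 0, with adjusted p down to 0.289, 0.333 and 0.054. The number of members called was 0 with RLE size factors in edgeR and with limma on log2(FPKM + 1) or log2(FPKM + 0.1), with 2 members each at an unadjusted p under 0.05, and 0 to 1 with 1 mouse left out. The median member fold change was -0.13 with limma on log2(FPKM + 1), which shrinks low genes by construction. It ran from -0.62 to -0.29 with 1 mouse left out, and the ratio of summed member CPM, 0.681 with all mice, from 0.588 without Van replicate 1 to 0.738 without Van replicate 2. Gzmb ran from -0.10 without Con replicate 2, the opposite sign, to 1.82 with 1 mouse left out. The median pair correlation lay between 0.16 and 0.23.

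Over all genes, 322 were called by edgeR, against 962 with DESeq2, 983 with DESeq2's filter set for 0.05, 39 and 4 with limma on log2(FPKM + 1) and log2(FPKM + 0.1), and 21 to 136 with 1 mouse left out. Of the other NK genes, 2 were called by edgeR, against 3 with DESeq2 (Id2, Ikzf3 and Il18r1), 4 with its filter set for 0.05, 1 with at least 10 counts in every library, 1 on the fragment scale, 0 and 0 with limma, and 0 to 1 with 1 mouse left out. The cause was not tested. With the replicate number as a block, 110 genes, 1 member and 0 other NK genes were called. The numbers do not pair the mice. Same-numbered deviations correlated at 0.082, -0.036 and -0.181, and 1 of the 3 Con mice correlated best with its own number. The 6 members that were below 1 CPM in at least 1 library had few counts, and the part of depth in their spread was not tested.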

Other observations

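Of the marker lists that the members do not touch, erythroid genes stood out. Hba-a1, Hbb-bs, Hbb-bt and Alas2, genes of haemoglobin and its haem, rose in Van (4 of 8 tested genes called by edgeR, beside 2.00% of all genes tested). The erythroid list summed to between 81.6 and 144 CPM in Con and between 225 and 489 CPM in Van. Spleen macrophage genes summed to between 2230 and 2590 CPM in Con and between 2780 and 3360 CPM in Van, with 9 of 10 genes at a fold change above 0, 0 called by edgeR, 3 by DESeq2 and 7 at an unadjusted p under 0.05. Siglec1, among both the 3 and the 7, had a fold change below 0 (log2 -0.46). The plasma cell list had 0 of 4, the neutrophil list 0 of 7 and the platelet list 0 of 5 genes called by edgeR, 1, 0 and 0 by DESeq2, and 2, 1 and 2 at an unadjusted p under 0.05. Their sums overlapped between the groups.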
